A study of Rattus norvegicus with 6 samples.

Results

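Respiratory complex I genes were examined in rat keratinocytes, the epithelial cells of the epidermis, with and without exposure to heavy ions. The members were chosen by name: every gene whose only symbol in the array's annotation begins with Nduf followed by a, b, c, s, v, ab or af and a number. There were 42 such genes of 14217 genes with a single symbol, 36 of them named as subunits and 6 as Ndufaf assembly factors. Each gene was read by its probe set with the highest mean over all 6 arrays. Probe sets that carried the symbols of Ndufs5 or Ndufa10 also carried that of a second gene and were left out.

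All samples came from 1 immortalized keratinocyte line, first isolated from dorsal skin of newborn male Sprague-Dawley rats. The 3 unirradiated samples had no treatment, and 3 others were exposed to 56Fe ions (1.01 GeV per nucleon) at a dose of 3 Gy. Each sample was hybridised to 1 Affymetrix RAT 230_2 array, and the values are probe set intensities in arbitrary units. The interval from exposure to harvest is not given in the labels, nor is it stated that replicates were separate cultures, so the p-values rest on a spread between samples that may be technical only.

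Complex I is the entry point for electrons of NADH into the mitochondrial respiratory chain. It has an L shape: a matrix arm, which oxidises NADH and carries the electrons along iron-sulphur clusters to ubiquinone, and a membrane arm, which pumps protons. A conserved set of core subunits does the chemistry and is partly encoded by mitochondrial DNA, many accessory subunits surround it, and assembly factors help to build the complex but are not part of the finished enzyme. Keratinocytes also rely strongly on glycolysis.

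Genes of the respiratory chain are known to share elements for the transcription factors NRF1, YY1 and those of the ETS family near their starts, and the windows of the members were searched for them. Windows of 300 bases, 250 before and 50 after the start of the gene, were found for 40 members in RefSeq (build GRCr8). The letters AAGATGGCG, the core of a YY1 element, were in 8 of the 40 windows (20%), and in 1.73% of all 33469 windows of this length. The ETS letters CCGGAAG were in 9 of 40 (22.5%, against 8.75% of all) and the NRF1 core CGCATGCG in 3 of 40 (7.5%, against 1.66%). Over the 21851 windows of protein-coding genes alone the shares were higher, at 2.07% for YY1, 10.7% for ETS and 2.11% for NRF1. Both strands were searched, no match of 1 motif overlapped a match of another, and in Ndufa11 the NRF1 core matched at 2 overlapping positions. A match is a description of the letters and not evidence of binding.

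The YY1 letters are shown for 6 of the 8 members, taken from different parts of the complex. They are the accessory matrix arm subunits Ndufs4, Ndufs6 and Ndufa6, the core subunit Ndufs7, the membrane arm subunit Ndufb8 and the assembly factor Ndufaf8. The motif is the same in each because the search asked for it, and the bases before it differ between the genes. Each line gives 10 bases on either side, 5′ to 3′ on the strand of the gene, with the motif in capitals. All 8 matches lay on the strand of the gene, and their first bases lay between 2 and 26 bases past the start.
Ndufs4: tgcccacaggAAGATGGCGgcggtctcaa
Ndufs6: ggtcgtcggcAAGATGGCGgcggcgctga
Ndufa6: cttccttagcAAGATGGCGgccgcggcca
Ndufs7: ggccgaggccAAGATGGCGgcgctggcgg
Ndufb8: ggagaaggtgAAGATGGCGgcgtcccggg
Ndufaf8: ggcagggcccAAGATGGCGgcgcccacaa
The stretches lie at chr2:47794892-47794920 (minus strand), chr1:31797413-31797441 (plus strand), chr7:115750284-115750312 (minus strand), chr7:10110476-10110504 (minus strand), chr1:253362897-253362925 (minus strand) and chr10:105879900-105879928 (plus strand) of GRCr8, in that order. These 6 genes spanned most of the range of changes described next, from -0.32 in Ndufs4 to 0.013 in Ndufs7, on the log2 scale.

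After irradiation, no complex I gene passed the test, while most had slightly lower values. By limma, 0 of 42 members passed an adjusted p under 0.05 in either direction, against 2.07% of all 18632 tested probe sets. Of the 42 log2 changes 35 were below 0 and 7 above, with a median of -0.11, against 49.6% below 0 and a median of 0.0022 over all tested probe sets. The changes are irradiated minus unirradiated on log2(intensity + 16), a scale that understates changes of dim genes. All 42 members were brighter than the 40th percentile used as a filter, so that every member was tested. At an unadjusted p under 0.05 limma gave 6 members, all lower, and 5.91% of all tested probe sets were lower by that measure. This count of members was 4, 1 and 5 without unirradiated replicates 1, 2 and 3. It was 8, 3 and 2 without irradiated replicates 1, 2 and 3. The smallest adjusted p of a member was 0.236, for Ndufs4.

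The 95% intervals of the 42 changes, on the same scale and with values as deposited, reached from -0.58 at the low end of Ndufs4 to 0.48 at the high end of Ndufa4l2. The probe sets that passed the test on these arrays had a median change of 0.641 in size. The median SE over the members was 0.0848, against 0.136 over all tested probe sets.

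**Figure D1:**
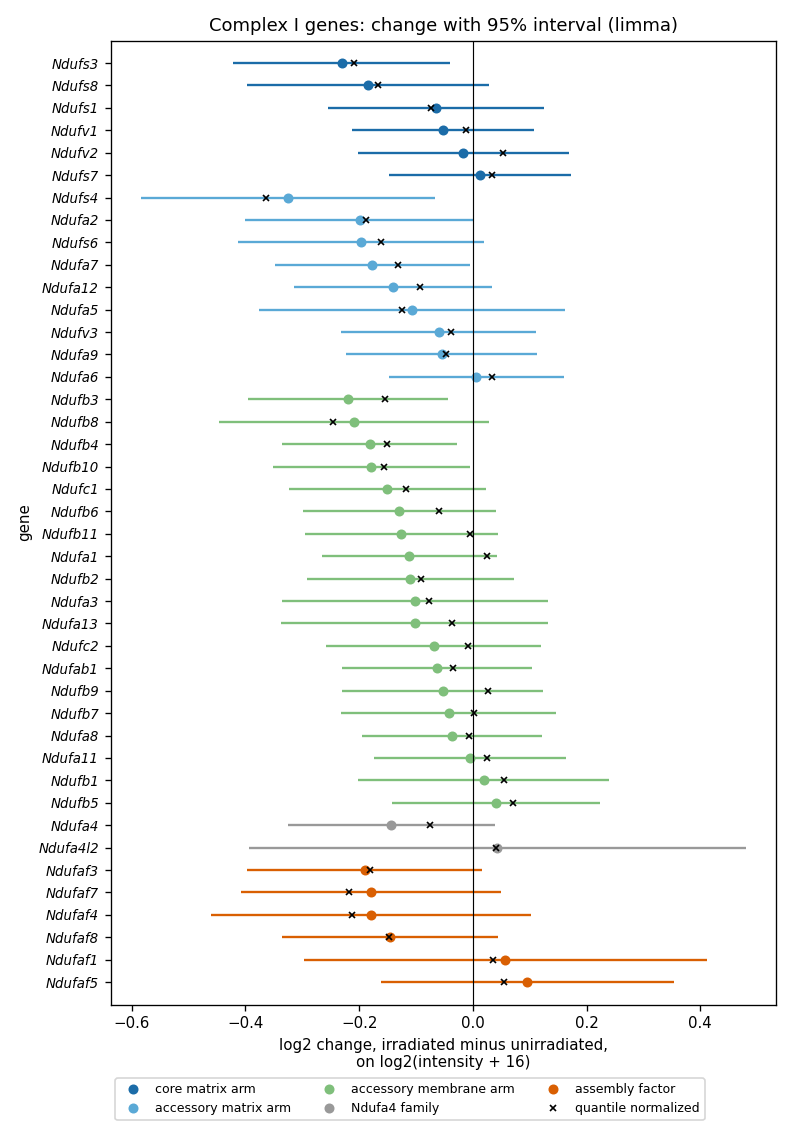
Log2 change of each of the 42 complex I genes, irradiated minus unirradiated, on the horizontal axis, with genes grouped by role on the vertical axis. Filled points are limma estimates on the values as deposited with 95% intervals (3 arrays a group) and crosses are estimates after quantile normalization; most points lie left of 0, between -0.32 and 0.10, and 6 intervals do not reach 0.

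The core subunits of the matrix arm, which hold the flavin and the iron-sulphur clusters, had mostly small changes. Of 6 measured, 5 were below 0, with a median of -0.058 on the log2 scale. Ndufv1, which binds NADH and the flavin, had intensities of 1414, 1482 and 1448 without and 1413, 1458 and 1319 with irradiation. Its change was -0.052 ± 0.074 (SE), and the groups overlapped. Ndufv2, which carries an iron-sulphur cluster beside it, had 2259.5, 2156 and 2640.0 without and 2422, 2238 and 2290.2 with irradiation. The third unirradiated array was the highest of the 6, and the change of -0.017 turned to 0.053 with quantile normalization. Ndufs1, the large subunit with further clusters, had 406, 418 and 422 without and 378, 385 and 428 with irradiation, a change of -0.064, with the highest value in an irradiated array.

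The core subunits nearer to ubiquinone differed from each other in size. Ndufs3 had 671, 762 and 768 without and 592, 669.5 and 607 with irradiation. All 3 irradiated values lay below the unirradiated ones, the highest of them only just, with a change of -0.23 ± 0.088 (SE) and a limma adjusted p = 0.26. Ndufs8, which carries clusters on the way to ubiquinone, had 798, 958 and 734 without and 708, 751 and 713 with irradiation. Its groups overlapped at the lowest unirradiated value, and the change was -0.18 ± 0.098 (SE) with a limma adjusted p = 0.457. Ndufs7, which holds the last cluster before ubiquinone, had 1185, 1196 and 1290.1 without and 1263, 1235 and 1204 with irradiation, with a change of 0.013 and an interval of -0.15 to 0.17. The 6 values of Ndufs7 were interleaved between the groups.

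Accessory subunits of the matrix arm held the largest single difference. Ndufs4, a small subunit at the NADH-oxidising end whose loss in mice causes a disease resembling Leigh syndrome, had 145, 186 and 159.6 without and 121, 132 and 129 with irradiation. The groups did not overlap, and the ratio of means was 0.775, the lowest of the 42. Its change was -0.32 ± 0.12 (SE) with an interval of -0.58 to -0.066, -0.36 with quantile normalization (limma adjusted p = 0.181), and -0.40 to -0.24 when each array was left out in turn. Ndufa2, which has a thioredoxin-like fold, had 1148, 1389 and 1236 without and 1208, 1034 and 1038 with irradiation. The first irradiated array lay among the unirradiated ones and the change was -0.20 ± 0.093 (SE). The other accessory matrix arm genes, Ndufs6, Ndufa7, Ndufa12, Ndufa5, Ndufv3, Ndufa9 and Ndufa6, had changes from -0.20 to 0.0062, and of all 9 the median was -0.14 with 8 below 0.

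Accessory subunits of the membrane arm made up 19 members, of which 17 were below 0 with a median of -0.10. Ndufb3 had 2182, 2203 and 1992 without and 1982, 1801 and 1696 with irradiation. Its lowest unirradiated value lay just above the highest irradiated one, with a change of -0.22 ± 0.081 (SE) and a limma adjusted p = 0.239. With quantile normalization this became -0.15 (limma adjusted p = 0.412) and the groups overlapped. Ndufb8, whose protein is often used as a gauge of assembled complex I, had 222, 215 and 263 without and 209.9, 204 and 184 with irradiation. The groups did not overlap in Ndufb8, with a change of -0.21 ± 0.11 (SE) and a limma adjusted p = 0.45.

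The highest changes among the membrane arm genes were small. Ndufb5 had 1472, 1541 and 1288 without and 1397, 1487 and 1534 with irradiation, with a change of 0.041 and an interval of -0.14 to 0.22. Ndufb1 had 1375, 1503 and 1407 without and 1716, 1382 and 1275 with irradiation, with a change of 0.019. In Ndufb1 the first irradiated array was the highest of the 6 and the third was the lowest, and without the former the change was -0.10. The other 15 genes had changes from -0.18 in Ndufb4 to -0.0048 in Ndufa11. They include Ndufab1, the mitochondrial acyl carrier protein, at -0.063, and Ndufa13, also known as GRIM-19, at -0.10. The 11 Ndufb subunits, all of the membrane arm, had a median of -0.13.

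Ndufa4 was first described as a complex I subunit and is now placed in complex IV, and Ndufa4l2 is its relative, known to be induced by hypoxia in many cells. Ndufa4 had 1980.5, 1960.2 and 2271 without and 2017, 1833 and 1765 with irradiation, with overlapping groups and a change of -0.14 ± 0.084 (SE). Ndufa4l2 was dim, with 38.3, 16.6 and 25.8 without and 27.5, 24.0 and 30.5 with irradiation. Its unirradiated values held both the highest and the lowest of the 6, and the change of 0.043 had the widest interval of the members, -0.39 to 0.48. Without these 2 genes the median of the 34 other subunit genes was -0.10.

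The assembly factors split into 4 lower and 2 higher values. Ndufaf3 and Ndufaf4 act together early, on the part that will bind ubiquinone. Ndufaf3 had 1132, 1086 and 1009 without and 1073, 917 and 844 with irradiation, a change of -0.19 ± 0.095 (SE) with a limma adjusted p = 0.424. Ndufaf4 had 194, 221 and 176 without and 144, 198 and 176 with irradiation, a change of -0.18 ± 0.13 (SE). In both genes the groups overlapped. Ndufaf7, a mitochondrial methyltransferase, had 174, 162 and 161 without and 142, 149 and 141 with irradiation, a change of -0.18 ± 0.11 (SE) with no overlap. A second probe set of Ndufaf7 gave 0.056.

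Ndufaf5, which hydroxylates the core subunit Ndufs7, and Ndufaf8, which stabilises Ndufaf5, had changes of opposite sign. Ndufaf8 had 472, 461 and 483 without and 455, 392 and 431 with irradiation, a change of -0.15 ± 0.088 (SE) without overlap. Ndufaf5 had 114, 114 and 115 without and 137, 122 and 112 with irradiation. Its unirradiated values were within 1 unit of each other, while 1 irradiated value lay below them and 2 above, for a change of 0.096 ± 0.12 (SE). Ndufaf1, which takes part in building the membrane arm, was dim, with 39.5, 34.2 and 36.1 without and 30.7, 41.4 and 45.0 with irradiation and a change of 0.057. The difference between Ndufaf5 and Ndufaf8 was not tested.

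The difference between subunits and assembly factors depended on the scaling, on 1 array and on how the medians were taken. The median was -0.10 over 36 subunit genes and -0.16 over 6 assembly factor genes. The subunit median lay 0.057 above that of the assembly factors. The median deviation of each list from the unirradiated mean was also taken by array. The difference of these medians had an SD between arrays of 0.059, pooled over the groups, as deposited. By that measure the irradiated arrays averaged -0.099 for subunits and -0.10 for assembly factors. With quantile normalization these averages were -0.067 and -0.13. The sign of the difference of 0.057 turned without irradiated replicate 1 (-0.017) and with all probe sets of a gene averaged (-0.0013). With quantile normalization the difference of 0.057 became 0.11, and with cyclic loess normalization also 0.11. Both moved by less than the SD of 0.059, which belongs to the values as deposited. The 6 assembly factor changes, from -0.19 to 0.096, overlapped the range of the subunit changes, with Ndufaf1 and Ndufaf5 above its upper end.

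In 10 of the 42 members all 3 irradiated values lay below all 3 unirradiated values, and in 0 they all lay above. Over all tested probe sets these shares were 8.91% and 10.2%. Among the brightest 10% of tested probe sets, where most subunit genes lay, 19.5% were lower in this way. The 10 members were Ndufs3, Ndufs4, Ndufa7, Ndufb3, Ndufb4, Ndufb6, Ndufb8, Ndufb10, Ndufaf7 and Ndufaf8. With quantile normalization 6 of them remained, Ndufs4, Ndufb4, Ndufb8, Ndufb10, Ndufaf7 and Ndufaf8, against 9.23% of tested probe sets. In the brightest 10% that share was then 10.6%.

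The lower values were uneven over the irradiated arrays. The subunit genes deviated from their unirradiated mean by a median of -0.030, -0.14 and -0.13 in irradiated replicates 1, 2 and 3, against 5.1e-04, 0.0015 and -0.016 in the unirradiated arrays. Irradiated replicate 1 thus stood nearer to the unirradiated arrays than to the other irradiated ones. For the assembly factors the medians were -0.11, -0.061 and -0.14. Of the 42 members, 27, 36 and 36 lay below their unirradiated mean in the 3 irradiated arrays, and 20, 22 and 25 in the unirradiated ones. The unirradiated arrays make up that mean, so their own deviations lie around 0 by construction.

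**Figure D2:**
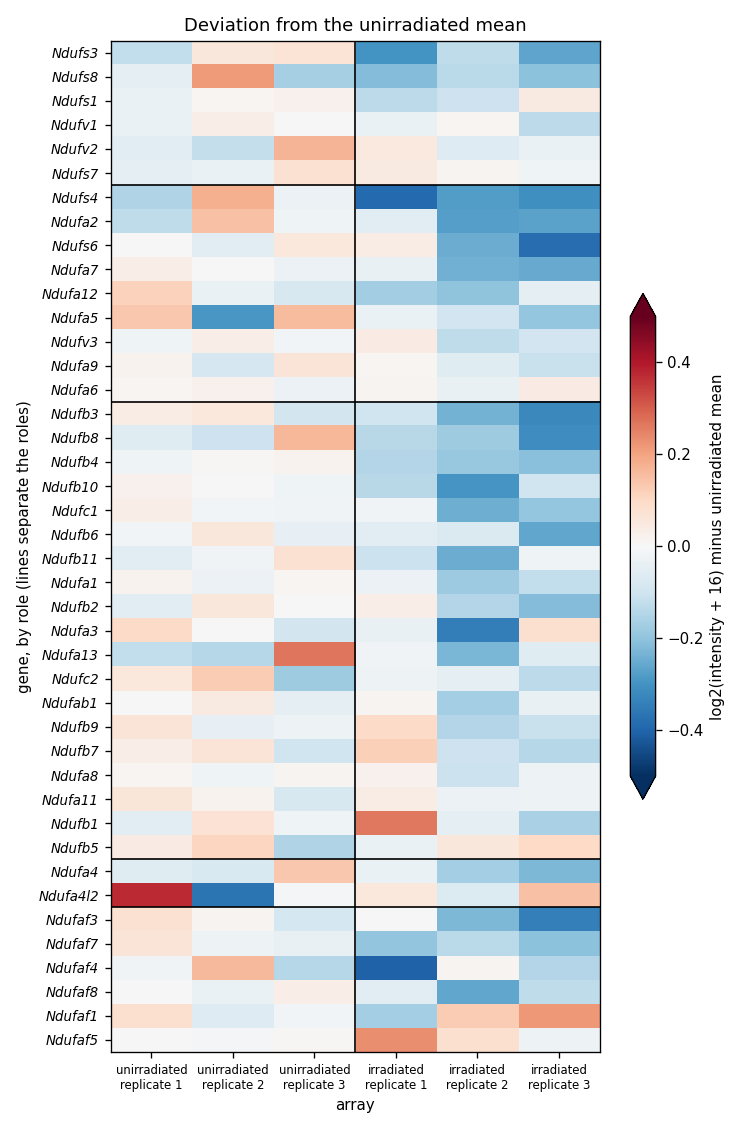
Deviation of each of the 42 complex I genes (rows, grouped by role) from its unirradiated mean, on log2(intensity + 16), in each of the 6 arrays (columns). Blue is lower and red is higher; blue prevails in irradiated replicates 2 and 3, where 36 of 42 genes lie below 0, and less in irradiated replicate 1, where 27 do.

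Bright probe sets had mostly lower values, whether or not they were complex I genes. Of the 36 subunit genes 28 were among the brightest 10% of tested probe sets, and of the 6 assembly factors 1 was. Over that class as a whole the median change was -0.066 and 70.4% were below 0, against -0.085 and 24 of 28 (85.7%) for the subunit genes in it. The irradiated values did not overlap the unirradiated ones and were lower in 19.5% of that class and in 5 of the 28 (17.9%). The 8 subunit genes outside it, Ndufs1, Ndufs3, Ndufs4, Ndufs8, Ndufa3, Ndufa5, Ndufb8 and Ndufa4l2, had a median of -0.15, and 3 of these 8 (37.5%) were lower without overlap. Among the subunit genes the dimmer ones thus had the lower median. The part of brightness in the members' changes was not tested.

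**Figure D3:**
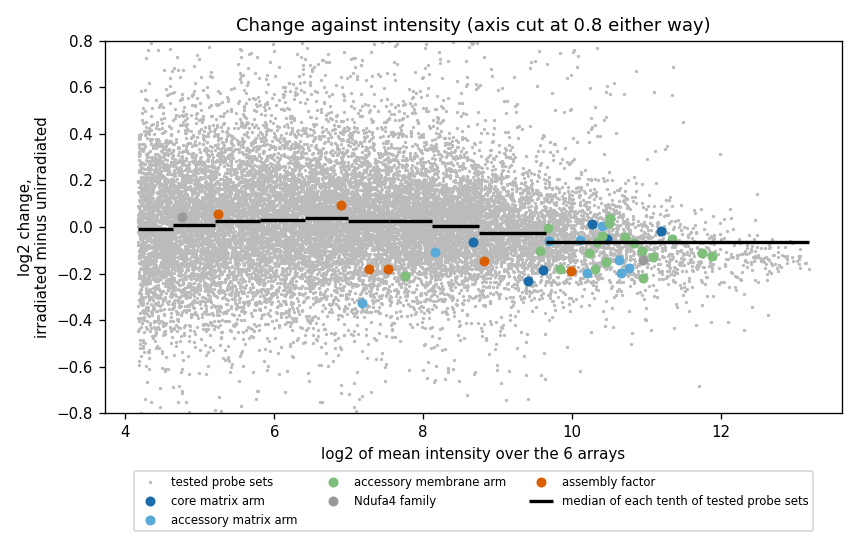
Log2 change, irradiated minus unirradiated (vertical axis), against log2 of the mean intensity over the 6 arrays (horizontal axis), for all tested probe sets (grey) and the 42 complex I genes (coloured by role). Black bars are the medians over 10 equal classes of tested probe sets by intensity; the bar of the brightest class lies at -0.066, and 28 of 36 subunit genes lie in that class.

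Quantile normalization, which gives all arrays the same distribution of intensities, left the bright probe sets with a median near that of the rest and narrowed the shift of the subunits. The brightest 10% then had a median of -0.010. The subunit median became -0.053 with 26 of 36 below 0, and the assembly factor median -0.16 with 4 of 6 below 0. Over all tested probe sets 51.8% were then below 0, and over the brightest 10% of them 54.2%. The 28 subunit genes in that class had a median of -0.035 with 19 below 0, and the 8 outside it -0.15 with 7 below 0. Among the subunits, the membrane arm genes had a median of -0.034, the core genes -0.043 and the accessory matrix arm genes -0.12. By array the subunit medians were 0.0035, -0.10 and -0.10 in irradiated replicates 1, 2 and 3, so that irradiated replicate 1 no longer lay below 0. Limma called 0 of 42 members, against 1.86% of 18625 tested probe sets.

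**Figure D4:**
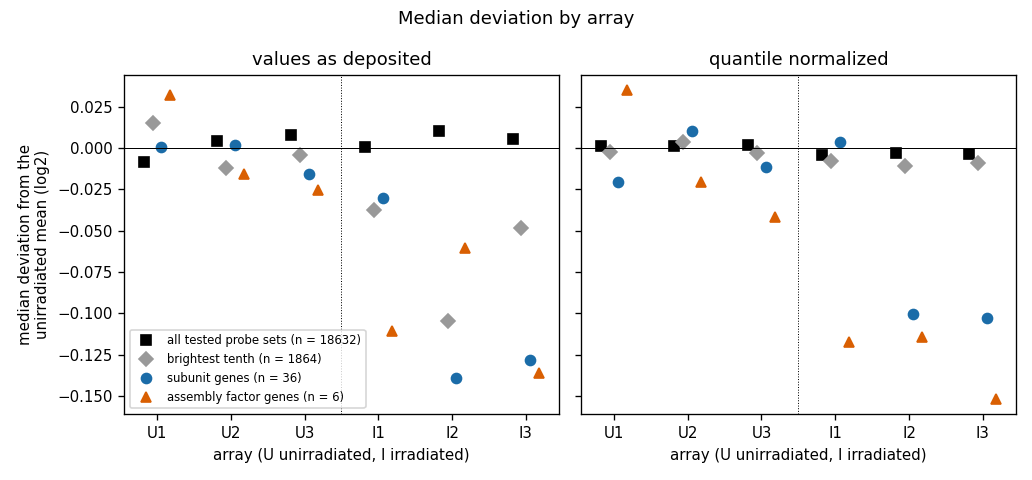
Median deviation from the unirradiated mean (log2 scale, vertical axis) in each array (U unirradiated, I irradiated) for all tested probe sets, the brightest 10%, complex I subunit genes and assembly factor genes, with values as deposited (left) and quantile normalized (right). The subunit median is -0.14 and -0.13 in irradiated replicates 2 and 3 as deposited and -0.10 in both after quantile normalization, while that of replicate 1 is -0.030 and 0.0035.

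Other genes of complex I biogenesis and of the control of mitochondrial genes were tested too, and none passed. Of 11 tested biogenesis genes 8 lay below 0, at a median of -0.087, and limma called 0. The lowest was Tmem186, an assembly factor of the membrane arm, with 172, 176 and 193 without and 158, 131 and 141 with irradiation, a change of -0.30 (limma adjusted p = 0.245). Of 12 tested regulators of mitochondrial gene expression 8 lay below 0, at a median of -0.042, and limma called 0. Among them, Nrf1, the factor whose letters were searched above, had a change of -0.17, Gabpa, an ETS factor, of 0.096, Yy1 of -0.073, and Ppargc1b, a coactivator of mitochondrial biogenesis, of -0.24.

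The other respiratory complexes and the mitochondrial ribosome also had mostly lower values. The 44 tested genes of complexes II to V had a median of -0.13 with 39 below 0, and -0.065 with quantile normalization. Of the 73 mitochondrial ribosomal protein genes 57 lay below 0, at a median of -0.067, which was -0.074 with quantile normalization. Limma called 3 genes of complexes II to V lower, Cox6a2, Sdhaf3 and Uqcrh, and 1 mitochondrial ribosomal gene lower, Mrpl36. Whether complex I differs from these groups was not tested.

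Some values of the arrays and cell markers also differed between the groups. The trimmed mean of intensity was 150.05 or 150.04 on every array, and correlations between arrays were 0.9836 to 0.988 within and 0.9796 to 0.9845 between groups. Intensity at the 99th percentile averaged 2694 ± 60 without and 2536 ± 109 with irradiation (SD, n = 3), with p = 0.1 by a two-sided exact permutation test, which is the lower limit for groups of this size. It was lowest, at 2411, in irradiated replicate 2. The 3′ to 5′ ratio of the Gapdh control probe sets was 1.30 to 1.34 without and 1.09 to 1.32 in irradiated arrays (p = 0.3, two-sided exact permutation test). That of beta-actin was 0.85 to 1.07 without and 0.92 to 1.04 with irradiation (p = 0.9, two-sided exact permutation test). All 12 named keratinocyte markers were above the filter, with a summed intensity of 31258 to 36547 without and 25894 to 28619 with irradiation, and by limma 5 of the 12 fell (Tp63, Krt14, Krt15, Krt17 and Sfn). With quantile normalization 3 of these passed, and Krt14 (limma adjusted p = 0.0562) and Krt17 (limma adjusted p = 0.199) did not. Of markers of other cells, 2 of 6 for fibroblasts, 1 of 5 for melanocytes, 0 of 4 for endothelium and 0 of 5 for immune cells were above the filter, and 1 of these 3, Col3a1 of fibroblasts, fell. The other fibroblast marker above the filter, Col1a1, had 21.1, 14.1 and 16.8 without and 40.2, 36.2 and 31.8 with irradiation, a change of 0.65 (limma adjusted p = 0.0826). The summed fibroblast markers, most of it Col3a1, were at 426 to 501 without and 352 to 385 with irradiation, while melanocyte (46.5 to 52.3 and 41.7 to 55.4), endothelial (28.6 to 49.7 and 28.7 to 45.1) and immune markers (21.6 to 47.6 and 20.2 to 45.7) stayed low in both. The part of these values in the members' changes was not tested, and in such bulk RNA fewer cells of a type and less RNA per cell cannot be told apart.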

How the data were processed

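RNA of 6 samples was measured on 1 Affymetrix RAT 230_2 array each. RNA was extracted with Trizol, per the labels' protocols, and BRB ArrayTools 3.3.0 is the software that the series' design text names. How probes were summarised and scaled is not given in the sources used here. Deposited values are intensities on a linear scale, 1 per probe set, scaled to a common trimmed mean (2% at each end) and not quantile normalized. They were kept as deposited.

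Of 31099 probe sets, 57 controls were left out, as were those below the 40th percentile of mean intensity. The other 18632 were fitted as log2(intensity + 16) with limma 3.58.1 in R 4.3.3 (lmFit, eBayes with an intensity trend), two-sided, with no covariate, with Benjamini-Hochberg adjustment over all of them (threshold 0.05). Quantile normalization was the second scaling. In a simulation over 18632 probe sets, 47% of added changes of 0.5 in size (log2 scale) were recovered, and 95% of those of 1. Its errors were normal and independent between probe sets, with no shift shared within an array. The changed probe sets were drawn from all tested ones, so these shares are not those of the members. Of the 153 calls made there, 11 were false. Smaller changes were not simulated.

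Symbols came from the platform's annotation (1 symbol for 20826 probe sets, several for 436, none for 9780); all 42 members matched RefSeq by Entrez ID. The members, roles, lists and tests were chosen with earlier results of these data known. Values in every array are given for the 5 lowest and 5 highest members, the core subunits, the Ndufa4 family and all Ndufaf genes; any called member would have been added. Alternatives were pseudocounts of 1 and 64, quantile, median and cyclic loess scaling, no filter or one at the 60th percentile, eBayes without trend, averaged probe sets and leaving out each array, in which the filter was set again on the remaining arrays.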

Additional observations from a re-analysis of the deposited data

How the results depend on the processing

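In all 15 alternatives limma called 0 of the complex I genes tested, and the smallest adjusted p of a member ranged from 0.133 to 0.379. At an unadjusted p under 0.05 the members numbered 1 (without the trend, or without unirradiated replicate 2) to 11 (median centring). The number of members below 0 stayed between 29 and 38, and the medians of subunits and of assembly factors stayed below 0. The subunit median moved by more than the SD between arrays (0.0428) with quantile normalization (-0.053) and cyclic loess normalization (-0.044), and that of the assembly factors (SD 0.0346) with probe sets averaged (-0.10) and without irradiated replicate 1 (-0.12). Leaving out each array, it ranged from -0.16 to -0.12, and subunits minus assembly factors from -0.017 to 0.073. The probe sets called over the whole table fell from 385 to 223 without a filter, where more were tested, to 170 without the trend, of which 84.7% were higher against 72.7%, and to 201 to 286 without 1 array, where fewer arrays were fitted. The cause of the fall without the trend was not tested.

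Signs of changes near 0 turned: Ndufv2 with quantile (0.053) and cyclic loess normalization (0.063), Ndufv1 with the latter (0.0021), and Ndufb1 (-0.013) and Ndufs7 (-0.019) with median centring. Leaving out each array, the ranges were -0.10 to 0.11 for Ndufb1, -0.0096 to 0.051 for Ndufs7, -0.14 to 0.23 for Ndufa4l2, -0.034 to 0.094 for Ndufb5, -0.077 to 0.069 for Ndufv2 and -0.022 to 0.17 for Ndufaf1. The labels give no replicate number shared between groups, so no pairing was used. With 3 arrays a group, the number of arrays limits the precision, most for the dim genes Ndufa4l2 and Ndufaf1.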

Other observations

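Of the 42 members 4 had a second probe set under the same single symbol. That of Ndufa7 had a log2 change of -0.10, against -0.18 for the probe set used, and that of Ndufv3 of 0.13, against -0.060. That of Ndufaf7 had 0.056, against -0.18. That of Ndufa9, at a mean intensity of 5.17, was below the filter and not tested. Of the 3 tested second probe sets limma called 0 (0 also at an unadjusted p under 0.05), and in Ndufv3 and Ndufaf7 the 2 probe sets differed in sign.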
